A study of Homo sapiens with 15 samples.

Results

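This is a comparison of HEK-293T cells that carried a CRISPR guide against the last coding exon of THAP1 (sg2-THAP1) with cells that carried a control guide against an intron of another gene (sg2-Control). Membership was set by the sample labels: the 3 sg2-THAP1 and 3 sg2-Control libraries were taken, 6 of the 15 RNA-seq libraries of the study. HEK-293T is a human embryonic kidney cell line that carries the SV40 large T antigen. The remaining libraries were 3 from untransduced cells, 3 with a THAP1 guide against the first coding exon (sg1-THAP1) and 3 with a control guide against an intron of FOXP1 (sg1-Control), and none of these 9 entered the test of the last exon guide. All cells came from a reporter line in which green fluorescent protein (GFP) had been knocked into the PSMB5 locus, and they overexpressed PSMB5 from a lentiviral vector to stay viable. Guides were delivered with Cas9 on a lentiviral vector under puromycin selection. THAP1 knockout cells were a population sorted for dim GFP, not a single clone, so each library averages over many edits. Whether control cells passed through the same sort is not given in the sources used here, and the sort cannot be told apart from the guide. No treatment, dose or time separates the groups. Of 35805 genes listed, 16787 reached a log2 RPM of -2 in 3 or more of the 15 libraries, and these were tested.

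THAP1 is a DNA-binding protein with an atypical zinc finger, the THAP domain. It binds promoters, often together with the co-activator HCFC1, the glycosyltransferase OGT and the zinc finger protein YY1. Dominant mutations of THAP1 cause an early-onset dystonia, a disorder of involuntary muscle contraction. PSMB5, whose product is the chymotrypsin-like catalytic subunit of the 20S proteasome, is one of the genes it activates.

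Values are log2 RPM, the read number of a gene scaled to the library total, so a difference of 1 is a 2-fold change. Calls required a change of more than 2-fold with an adjusted p under 0.001. Gene lists were counted at adjusted p under 0.05 in each direction. All tests were limma fits with Benjamini-Hochberg adjustment over the 16787 genes, and SE is the standard error of a log2 difference between 3 and 3 libraries. For the difference between guides, SE is that of a difference of such differences, in a fit of 12 libraries. Replicates were stated to be biological triplicates, but the labels do not name separate cultures, so p-values measure the spread between these libraries.

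Depth ranged from 31900201 to 35507392 reads in sg2-Control and from 31951685 to 47754883 in sg2-THAP1, within 30400149 to 56638461 over all libraries. Libraries of the same group differed by more than sampling noise, with a chi-square per gene between 2.38 and 4.78. HEK-293T markers (IRS4, PAX2, LHX1, NEFL, NEFM, VIM, LIN28B and CRABP2) each had reads in both groups and summed to 1436 to 1437 RPM in sg2-THAP1 and 1532 to 1608 RPM in sg2-Control. Of these 8 markers, IRS4, CRABP2 and LIN28B were lower, NEFM was higher and 4 did not pass. Summed markers of other cell types were low in both groups. T cell markers stayed at or under 0.313 RPM with 4 of 7 genes at 0 reads in each group, myeloid markers at or under 1.26 RPM, cervical epithelium markers at or under 1.82 RPM and lung epithelium markers at or under 3.23 RPM.

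THAP1 itself, the targeted gene, was higher in every sg2-THAP1 library. Its log2 RPM was 6.06, 6.18 and 6.12 in sg2-THAP1, 3.44, 3.25 and 3.49 in sg2-Control and 3.46, 3.36 and 3.45 in untransduced cells. The groups did not overlap, and the difference was 2.73 (SE 0.06, adjusted p = 1.66e-24). In bulk RNA, a change in the number of cells that express a gene and a change in RNA per cell cannot be told apart. Gene counts measure the transcript and show neither the edit nor the protein. PSMB5 stood at 11.53, 11.5 and 11.51 in sg2-THAP1 against 11.93, 11.91 and 11.92 in sg2-Control, a fall of 0.41 (SE 0.02, adjusted p = 2.20e-15). Its count mixes the endogenous gene with the exogenous copy, so the fall of the endogenous transcript cannot be read from it. THAP1 knockout cells were also sorted for dim GFP from the reporter at this locus, so low PSMB5 expression was in part selected.

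Across the transcriptome, 374 genes were called between sg2-THAP1 and sg2-Control. Of these, 262 were lower, or 1.56% of genes tested, and 112 were higher, or 0.667%. A change of more than 4-fold was seen for 35 lower and 15 higher genes. For 373 of the 374 genes, all sg2-THAP1 libraries lay on one side of all sg2-Control libraries, as they did for 56.0% of all genes tested. Against untransduced cells as well, 225 lower and 85 higher genes lay beyond both groups, and the other 64 did not. With the adjusted p under 0.05 and changes of any size, 26.9% of genes were lower and 22.9% were higher, around a median difference of -0.02 over all tested genes. Of all genes lower at this threshold 64.9% lay below both sg2-Control and untransduced cells, and of all higher genes 63.0% lay above both. Lists below are read against these shares.

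**Figure D1:**
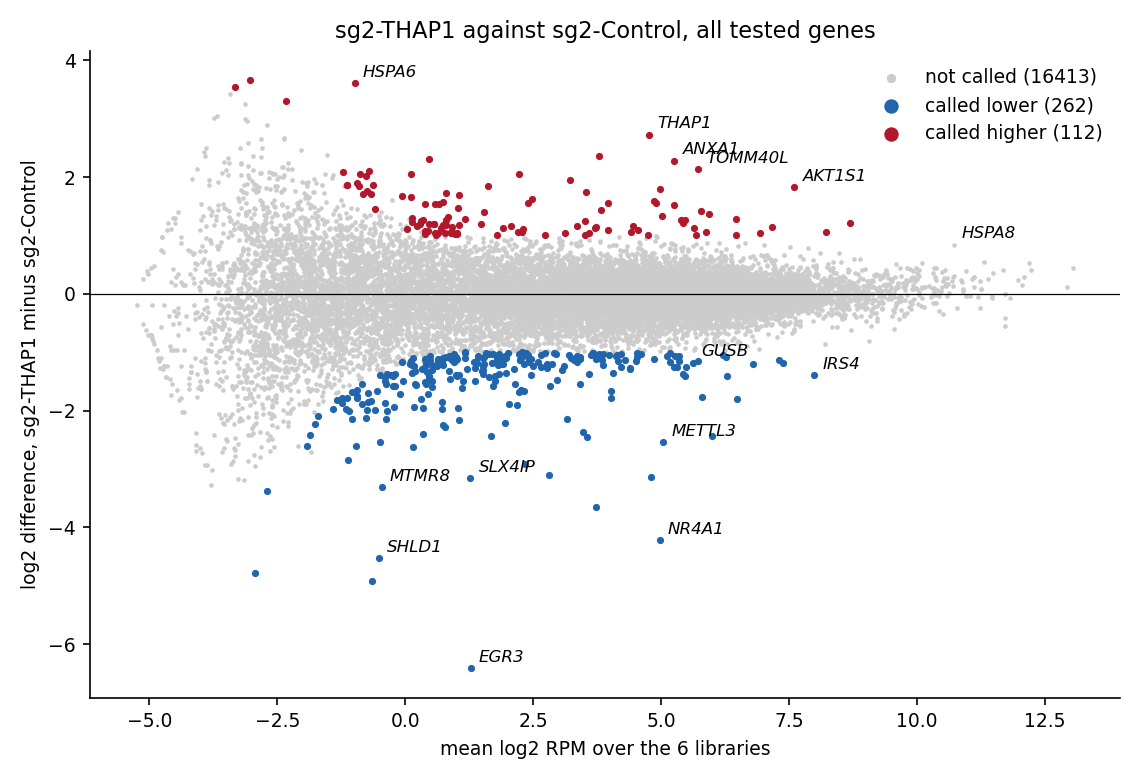
Log2 difference between sg2-THAP1 and sg2-Control (y axis) against mean log2 RPM over the 6 libraries (x axis), with 1 point per tested gene. Blue points are the 262 genes called lower and red points the 112 called higher, and called genes span low to high expression, from SHLD1 to IRS4.

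The 17 genes taken as labelled targets are those named in a plot of the study, a subset of the direct targets that it lists. They were chosen with these same libraries, so the direction of the list is not independent evidence. Of them, 10 were called lower and 7 higher with the last exon guide, and all 17 lay beyond both sg2-Control and untransduced cells. SHLD1 (listed as C20orf196, chr20:5750393-5863912, GRCh38) encodes a subunit of shieldin, which protects DNA ends at double-strand breaks from resection. It stood at -3.0, -2.94 and -2.41 log2 RPM in sg2-THAP1, or 4, 5 and 9 reads, against 1.72, 1.72 and 1.79 in sg2-Control, or 117, 105 and 122 reads. The difference was -4.53 (SE 0.33, adjusted p = 1.63e-12), which left 4.34% of the control level. SLX4IP (chr20:10435303-10636829), which binds the SLX4 nuclease scaffold, was at 0.21, -0.94 and -0.19 in sg2-THAP1, 2.87, 2.83 and 2.85 in sg2-Control and 3.67, 3.74 and 3.8 in untransduced cells, a difference of -3.15 (SE 0.21, adjusted p = 3.96e-13). Without trended moderation, in which the prior spread follows the expression level, its call was lost (adjusted p = 0.00219).

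METTL3 (chr14:21498133-21511375) is the catalytic subunit of the N6-methyladenosine (m6A) RNA methyltransferase. Its log2 RPM was 3.99, 3.73 and 3.59 in sg2-THAP1 and 6.3, 6.27 and 6.36 in sg2-Control, without overlap, and it fell by 2.54 (SE 0.07, adjusted p = 1.19e-22). MTMR8 (chrX:64268081-64395431), a myotubularin-related phosphatase, had 9, 5 and 16 reads in sg2-THAP1 and 87, 66 and 83 in sg2-Control, a difference of -3.31 (SE 0.35, adjusted p = 4.49e-09). Its call was lost without trended moderation (adjusted p = 0.00332). GALC (chr14:87837820-87993665), the lysosomal galactosylceramidase, varied more between replicates, at -1.83, -0.17 and -1.49 in sg2-THAP1 and 1.08, 1.5 and 1.83 in sg2-Control. The groups still did not overlap, and the difference was -2.63 (SE 0.33, adjusted p = 7.82e-08), but without trended moderation it was not called (adjusted p = 0.0123).

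ECH1 (chr19:38815422-38832005), an enoyl-CoA isomerase of fatty acid oxidation, was at 2.11, 2.29 and 2.57 in sg2-THAP1, 4.69, 4.92 and 4.73 in sg2-Control and 5.72, 5.7 and 5.74 in untransduced cells. It fell by 2.45 (SE 0.10, adjusted p = 1.84e-18) against sg2-Control, which itself was lower than untransduced by a log2 difference of -0.94. CDIN1 (chr15:36579611-36810248), a partner of codanin, changed by -1.66 (SE 0.12, adjusted p = 3.48e-12). The non-coding RP11-35G9.3 and RP11-35G9.5, neighbours on chromosome 18, changed by -2.29 (SE 0.22, adjusted p = 4.59e-10) and -2.39 (SE 0.25, adjusted p = 2.92e-09), and both calls were lost without trended moderation (adjusted p = 0.00139 and 0.00145).

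**Figure D2:**
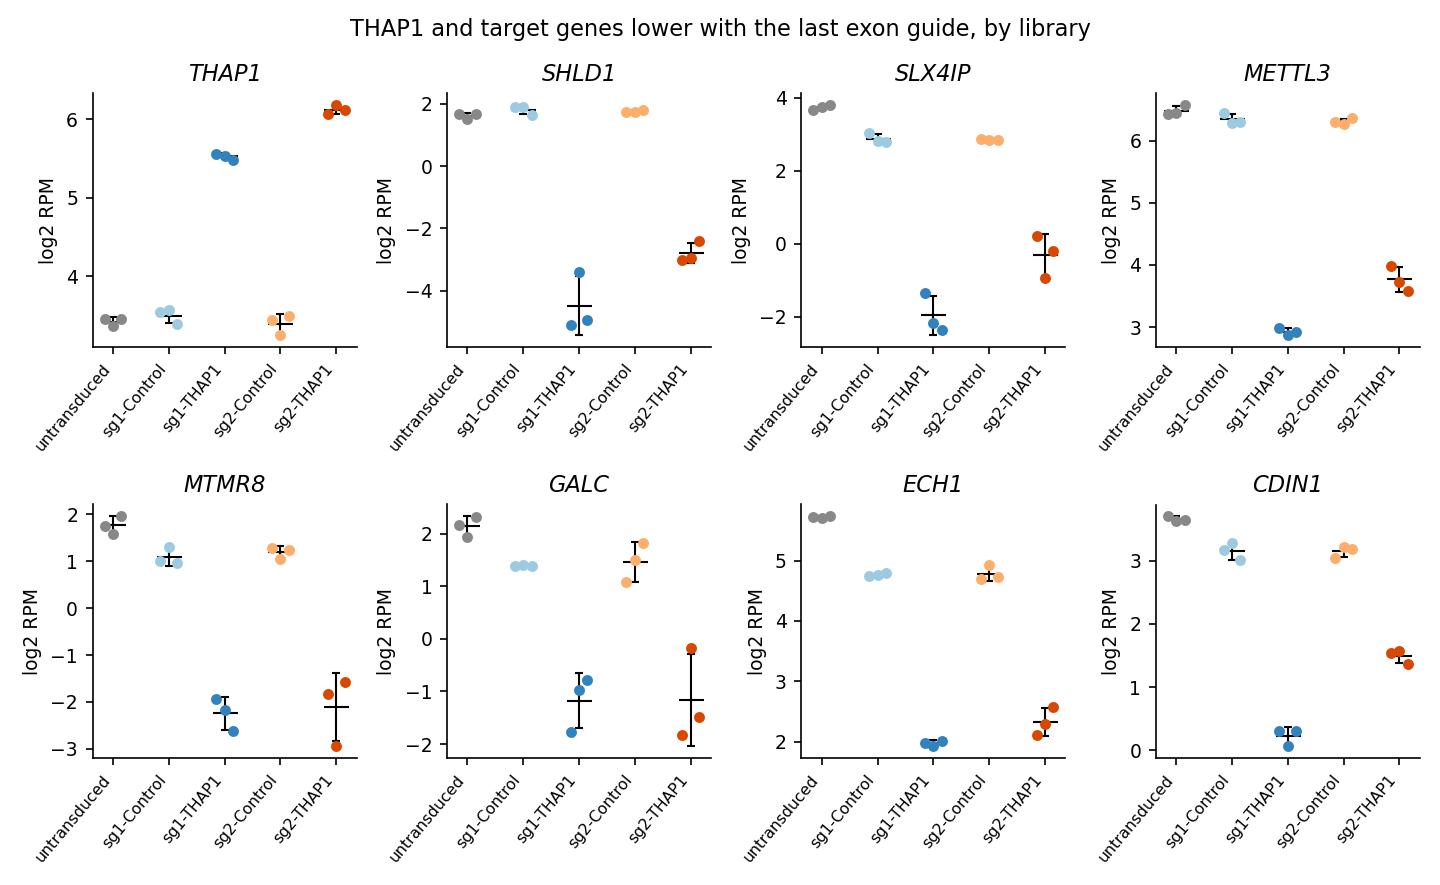
Log2 RPM (y axes) of THAP1 and 7 target genes in each library of the 5 groups, with points for libraries, a horizontal bar for the mean and whiskers for 1 SD (n = 3). THAP1 is higher in all sg2-THAP1 libraries, and the other 7 genes are lower there than in every sg2-Control and untransduced library.

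Genes that rose were led, among the labelled targets, by TOMM40L (chr1:161225939-161230744), a homologue of the mitochondrial import channel TOMM40. Its log2 RPM was 6.8, 6.75 and 6.8 in sg2-THAP1, 4.67, 4.68 and 4.61 in sg2-Control and 4.09, 3.99 and 4.07 in untransduced cells, and it rose by 2.13 (SE 0.04, adjusted p = 2.00e-25). AKT1S1 (chr19:49869033-49878459), the PRAS40 inhibitor of mTOR complex 1, was at 8.57, 8.46 and 8.52 against 6.71, 6.71 and 6.64 and rose by 1.83 (SE 0.03, adjusted p = 1.83e-26). The call rested on 12116 to 17565 reads per library in sg2-THAP1 and 3345 to 3721 in sg2-Control.

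AK9 (chr6:109492856-109691217), an adenylate kinase, rose by 1.95 (SE 0.09, adjusted p = 1.14e-16), from 2.25, 2.35 and 2.13 in sg2-Control to 4.18, 4.23 and 4.16 in sg2-THAP1. Within 95 bases of its start, on the opposite strand, begins FIG4, a phosphoinositide phosphatase, which fell by 0.58 (SE 0.08, adjusted p = 6.94e-07). TMEM101 (chr17:44011188-44023946) rose by 1.8 (SE 0.05, adjusted p = 1.34e-21), but its level in sg2-THAP1, 5.88, 5.92 and 5.87, was near that of untransduced cells at 5.66, 5.67 and 5.69, while sg2-Control stood lower at 4.15, 4.08 and 4.04. TMEM17 (chr2), a transmembrane protein of the ciliary transition zone, rose by 1.85 (SE 0.17, adjusted p = 1.64e-10). Rises were also called for AC097662.2, at 1.66 (SE 0.26, adjusted p = 4.45e-06), and AC005775.2, at 2.1 (SE 0.38, adjusted p = 2.85e-05), both of them non-coding. The starts of TPGS1 and MFF lie on the opposite strand within 534 and 50 bases of those 2 genes. TPGS1 rose by 0.32 (SE 0.08, adjusted p = 6.32e-04), and MFF differed by 0.04 (SE 0.05, adjusted p = 0.511). Library preparation was strand-specific per the study's methods, but the strand setting of the counting is not given in the sources used here, so reads from overlapping genes on opposite strands may not be told apart. AC005775.2 missed its call without sg2-THAP1 replicate 2 (adjusted p = 0.00107). Without trended moderation TMEM17, AC097662.2 and AC005775.2 were not called (adjusted p = 0.00181, 0.00145 and 0.0121). None of these 3 neighbours was called, and no other target had a tested opposite-strand start within 1000 bases.

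**Figure D3:**
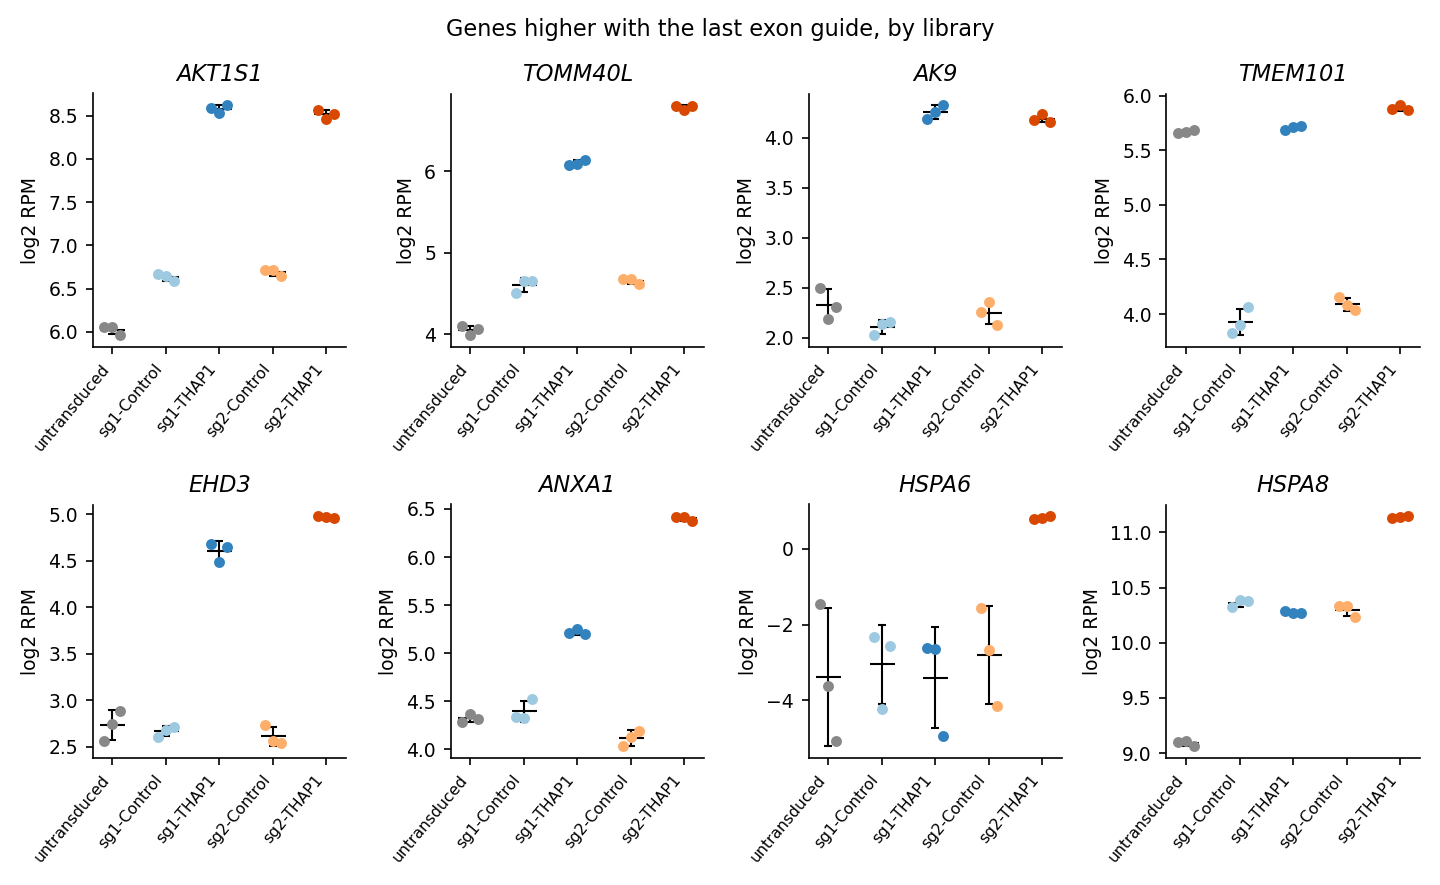
Log2 RPM (y axes) of 8 genes in each library of the 5 groups, with points for libraries, a horizontal bar for the mean and whiskers for 1 SD (n = 3). All 8 genes are higher in every sg2-THAP1 library than in every sg2-Control and untransduced library, and for HSPA6 and HSPA8 no sg1-THAP1 library exceeds the highest sg1-Control library.

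Beyond the labelled targets, the largest called changes outside both comparison groups included EHD3, an endocytic recycling ATPase. It was at 4.98, 4.97 and 4.96 in sg2-THAP1 and 2.73, 2.57 and 2.54 in sg2-Control and rose by 2.36 (SE 0.08, adjusted p = 1.35e-20). ANXA1, the calcium-dependent phospholipid-binding annexin A1, was at 6.42, 6.42 and 6.37 against 4.03, 4.13 and 4.19 and rose by 2.28 (SE 0.05, adjusted p = 1.11e-24). The non-coding LINC01134 rose by 2.32 (SE 0.24, adjusted p = 4.24e-09). HSPA6, a stress-induced cytosolic HSP70, was detected at 55, 67 and 87 reads in sg2-THAP1 and at 12, 5 and 2 reads in sg2-Control. Its log2 RPM of 0.78, 0.80 and 0.87 was tight in sg2-THAP1 and scattered in sg2-Control at -1.57, -2.67 and -4.14, and the difference was 3.61 (SE 0.47, adjusted p = 1.73e-07). It was 4.22 without sg2-Control replicate 1 and 2.94 without replicate 3, and without trended moderation the call was lost (adjusted p = 0.012), as was that of LINC01134 (adjusted p = 0.00213). Only 2 libraries outside sg2-THAP1 reached the log2 minimum of -2, so HSPA6 entered the test through the group where it is high, and its values are a description.

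Some of the largest rises rested on few reads. KLHDC7B had 15, 20 and 16 reads in sg2-THAP1 and 0, 0 and 2 in sg2-Control, a ratio of summed RPM of 22.2 (95% exact interval 5.83 to 188). RIMBP3B, which has near-identical copies on chromosome 22, had 13, 16 and 11 against 1, 1 and 1 reads, a ratio of 11.6 (95% exact interval 3.69 to 58.5). Intervals cover counting error only. These and HSPA6 were the 3 of the 112 genes called higher that passed the filter on low values only through the sg2-THAP1 libraries. No library outside sg2-THAP1 reached the minimum for KLHDC7B and 2 did for RIMBP3B, so a difference was built into their inclusion. BCAS1 had 20, 22 and 32 against 1, 10 and 1 reads, a ratio of 5.36 (95% exact interval 2.89 to 10.8), with most control reads in 1 library and 11, 7 and 13 reads in untransduced cells, and its log2 difference went from 3.30 to 4.46 without sg2-Control replicate 2. LINC00242 and APOBR rose by 2.08 (SE 0.45, adjusted p = 2.85e-04) and 2.06 (SE 0.46, adjusted p = 4.52e-04), the latter by 1.31 without sg2-Control replicate 2. Calls on these 5 genes were lost when single libraries were left out, and without trended moderation (adjusted p = 0.00131 to 0.0661). KLHDC7B missed the call without any 1 of the sg2-THAP1 libraries (adjusted p = 0.00206 to 0.00616), and RIMBP3B without any of these or sg2-Control replicate 1 (0.00105 to 0.015). BCAS1 missed it without any sg2-THAP1 library or sg2-Control replicate 1 or 3 (0.00159 to 0.00531). LINC00242 missed it without any sg2-THAP1 library or sg2-Control replicate 1 (0.00142 to 0.00508), and APOBR without any sg2-THAP1 library or sg2-Control replicate 2 (0.00194 to 0.00596).

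Falls outside the labelled targets included TMEM100, a transmembrane protein first known from endothelium, with 5, 15 and 7 reads in sg2-THAP1 against 56, 28 and 52 in sg2-Control and a difference of -2.61 (SE 0.42, adjusted p = 5.94e-06). NOVA2, a neuronal splicing factor, had 9, 12 and 14 reads against 73, 58 and 48 and a difference of -2.54 (SE 0.32, adjusted p = 1.21e-07). Without trended moderation neither TMEM100 nor NOVA2 was called (adjusted p = 0.0114 and 0.00107). IKZF1, a lymphoid zinc finger factor, had 0, 7 and 1 against 14, 23 and 15 reads, and RP11-649A18.4 had 1, 12 and 6 against 24, 18 and 26. For IKZF1 the inverse ratio of summed RPM was 7.48 (95% exact interval 3.53 to 18.2). Both of the latter were called, with adjusted p of 5.80e-04 and 9.57e-04, and both missed the call without any 1 of the 6 libraries other than sg2-THAP1 replicate 2, at adjusted p of 0.0021 to 0.00921, and without trended moderation (adjusted p = 0.0352 and 0.064). Without sg2-THAP1 replicate 2 their differences were -4.35 and -3.39, and without replicate 1 that of RP11-649A18.4 was -1.73. IRS4, an insulin receptor substrate that marks this cell line, was at 7.3, 7.31 and 7.29 against 8.7, 8.71 and 8.67 and fell by 1.39 (SE 0.03, adjusted p = 2.33e-25).

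Promoter windows were read from RefSeq (GRCh38.p14), 250 bases before to 50 after an annotated start, for coding genes with positions used here that were called labelled targets or among the 12 largest called changes in each direction outside both sg2-Control and untransduced cells. Of those with a window, the 4 with the largest falls and the 2 with the largest rises are shown, for the letters at their starts. Of 26 such genes, 17 matched a window. SHLD1, AKT1S1, ECH1 and TMEM101 had no entry. SLX4IP and TOMM40L were added after their values were seen, as a target that fell and a target that rose. Capitals mark matches on either strand to TNNNGGCA, the THAP1 binding core, AAGATGGCG, a YY1 site, or GAANNTTC, the core of a heat shock element. Over all 35116 promoter windows, 41.7% held TNNNGGCA, 1.75% held AAGATGGCG and 6.77% held GAANNTTC. A match is only a description of the letters.

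EGR2 (chr10:62819118-62819417, minus strand): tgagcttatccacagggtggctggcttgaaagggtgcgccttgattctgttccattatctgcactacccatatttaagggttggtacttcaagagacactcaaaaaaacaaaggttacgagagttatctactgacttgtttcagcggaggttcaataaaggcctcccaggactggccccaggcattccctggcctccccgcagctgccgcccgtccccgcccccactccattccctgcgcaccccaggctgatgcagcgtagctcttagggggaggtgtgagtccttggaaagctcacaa
NR4A1 (chr12:52022582-52022881, plus strand): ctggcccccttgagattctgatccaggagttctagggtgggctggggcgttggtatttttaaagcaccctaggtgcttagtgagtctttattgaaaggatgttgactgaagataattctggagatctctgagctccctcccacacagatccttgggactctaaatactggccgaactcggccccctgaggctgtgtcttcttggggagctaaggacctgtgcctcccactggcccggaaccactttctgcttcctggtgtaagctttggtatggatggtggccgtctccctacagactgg
IKZF1 (chr7:50304466-50304765, plus strand): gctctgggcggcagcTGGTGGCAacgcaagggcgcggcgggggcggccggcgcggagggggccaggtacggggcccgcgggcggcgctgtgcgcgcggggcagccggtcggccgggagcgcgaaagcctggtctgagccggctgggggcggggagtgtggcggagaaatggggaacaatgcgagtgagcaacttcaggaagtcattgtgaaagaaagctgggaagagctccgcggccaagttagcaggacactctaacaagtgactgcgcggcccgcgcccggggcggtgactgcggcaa
MTMR8 (chrX:64395403-64395702, minus strand): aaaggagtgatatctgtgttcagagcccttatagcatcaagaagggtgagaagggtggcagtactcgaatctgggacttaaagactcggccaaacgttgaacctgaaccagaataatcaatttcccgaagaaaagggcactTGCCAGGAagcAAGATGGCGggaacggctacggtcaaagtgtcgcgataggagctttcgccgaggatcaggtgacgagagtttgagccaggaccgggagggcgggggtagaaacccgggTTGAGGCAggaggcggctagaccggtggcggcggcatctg
KLHDC7B (chr22:50545649-50545948, plus strand): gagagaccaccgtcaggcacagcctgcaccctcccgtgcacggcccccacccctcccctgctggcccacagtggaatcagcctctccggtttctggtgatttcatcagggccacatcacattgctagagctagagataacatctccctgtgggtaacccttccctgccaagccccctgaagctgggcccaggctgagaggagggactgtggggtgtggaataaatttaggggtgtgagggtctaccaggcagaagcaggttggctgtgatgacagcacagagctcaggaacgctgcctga
HSPA6 (chr1:161524290-161524589, plus strand): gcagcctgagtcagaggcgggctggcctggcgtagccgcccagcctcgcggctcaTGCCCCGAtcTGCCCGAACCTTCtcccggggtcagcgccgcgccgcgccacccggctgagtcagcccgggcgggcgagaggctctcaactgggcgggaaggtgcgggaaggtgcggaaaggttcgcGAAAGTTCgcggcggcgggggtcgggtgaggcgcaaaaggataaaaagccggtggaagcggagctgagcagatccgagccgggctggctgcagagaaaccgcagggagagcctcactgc
SLX4IP (chr20:10435055-10435354, plus strand): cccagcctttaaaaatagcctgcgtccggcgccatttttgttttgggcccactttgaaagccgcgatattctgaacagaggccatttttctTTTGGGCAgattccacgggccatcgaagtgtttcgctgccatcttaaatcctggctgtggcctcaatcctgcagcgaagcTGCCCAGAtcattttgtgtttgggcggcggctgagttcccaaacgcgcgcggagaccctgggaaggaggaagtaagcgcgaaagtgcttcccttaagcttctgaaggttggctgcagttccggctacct
TOMM40L (chr1:161225810-161226109, plus strand): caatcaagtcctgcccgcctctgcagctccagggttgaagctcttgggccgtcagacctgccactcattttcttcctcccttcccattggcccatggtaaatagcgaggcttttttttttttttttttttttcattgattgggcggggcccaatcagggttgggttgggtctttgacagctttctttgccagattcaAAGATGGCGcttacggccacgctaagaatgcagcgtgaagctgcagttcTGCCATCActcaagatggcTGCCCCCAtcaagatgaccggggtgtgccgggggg

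MTMR8, which fell, and TOMM40L, which rose, each held 1 AAGATGGCG and 2 TNNNGGCA matches. SLX4IP held 2 TNNNGGCA matches and HSPA6 held 2 GAANNTTC and 2 TNNNGGCA matches, with 1 of each overlapping in HSPA6. IKZF1 held 1 TNNNGGCA match. None of the 3 motifs was found in the windows of NR4A1, EGR2 and KLHDC7B. The annotated starts of the EGR2 and KLHDC7B windows lie 100733 and 2134 bases from the gene starts in the deposited annotation.

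Immediate early genes had the largest median fall of any list other than the labelled targets. They encode transcription factors and regulators that cells switch on within minutes of growth factor signalling. Of 23 tested, 20 were lower in sg2-THAP1 and 0 higher, with a median difference of -1.38. EGR3, a zinc finger factor of the EGR family, was at -2.0, -1.68 and -2.12 log2 RPM in sg2-THAP1 and 4.68, 4.37 and 4.4 in sg2-Control, a difference of -6.42 (SE 0.18, adjusted p = 4.67e-22). NR4A1, an orphan nuclear receptor, was at 2.8, 3.0 and 2.8 against 7.11, 7.04 and 7.08, a difference of -4.22 (SE 0.06, adjusted p = 8.55e-30). EGR2, a sister factor, had 3, 6 and 5 reads against 124, 131 and 106, a difference of -4.93 (SE 0.35, adjusted p = 1.01e-12), and EGR4 had 1, 1 and 0 against 21, 26 and 23, a ratio of summed RPM of 0.0248 (95% exact interval 0.00295 to 0.0931).

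The other nuclear receptors of the NR4A family and the AP-1 factors fell less. NR4A2 and NR4A3 fell by 3.11 (SE 0.12, adjusted p = 1.84e-18) and 3.65 (SE 0.08, adjusted p = 2.20e-25). EGR1 was at 4.7, 4.77 and 4.88 against 7.19, 7.23 and 7.22 and fell by 2.43 (SE 0.05, adjusted p = 1.83e-26), while FOSB fell by 3.14 (SE 0.06, adjusted p = 1.90e-25). FOS, JUNB and IER2 fell by 1.14, 1.0 and 0.84. JUN, DUSP1 and IER3 did not pass, at -0.02, -0.05 and 0.13.

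Control cells were not at the untransduced level for this group. Its median was higher in sg2-Control than in untransduced cells by 2.0, so sg2-Control stood above both sg2-THAP1 and untransduced cells. Of the 20 members lower in sg2-THAP1, 5 (EGR2, NR4A1, NR4A2, ATF3 and BTG2) were also below all untransduced libraries. For EGR1, untransduced cells stood at 3.87, 4.19 and 4.05 log2 RPM, and for FOSB at 0.88, 1.28 and 1.43, both under sg2-THAP1. EGR2 was at -0.84, -1.38 and -2.12 and NR4A1 at 3.82, 3.98 and 4.07 in untransduced cells.

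Feedback genes of the ERK pathway also stood highest in sg2-Control of these 3 groups (untransduced, sg2-Control and sg2-THAP1), with library medians of -0.84 to -0.37 in sg2-THAP1 and -1.18 to -1.05 in untransduced cells relative to the sg2-Control mean. Of 15 tested, 9 were lower in sg2-THAP1 and 1 higher, with a median of -0.67. DUSP5, an ERK phosphatase, fell by 2.36 (SE 0.12, adjusted p = 1.08e-15). The calls of DUSP5, SPRY4 and CCND1 were lost without trended moderation (adjusted p = 0.00208, 0.00927 and 0.00146). SPRY4, a Sprouty inhibitor of receptor signalling, had 20, 23 and 58 reads in sg2-THAP1, 90, 145 and 147 in sg2-Control and 0 to 1 in each untransduced library. CCND1, cyclin D1, was at 4.68, 4.64 and 4.96 against 6.06, 6.28 and 6.14, fell by 1.4 (SE 0.06, adjusted p = 4.62e-17), and was the member that also lay under untransduced cells. ETV4, a PEA3 family ETS factor, was the member that rose, by 0.93 (SE 0.31, adjusted p = 0.0127), with overlapping groups of 55, 90 and 103 and 21, 72 and 33 reads.

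**Figure D4:**
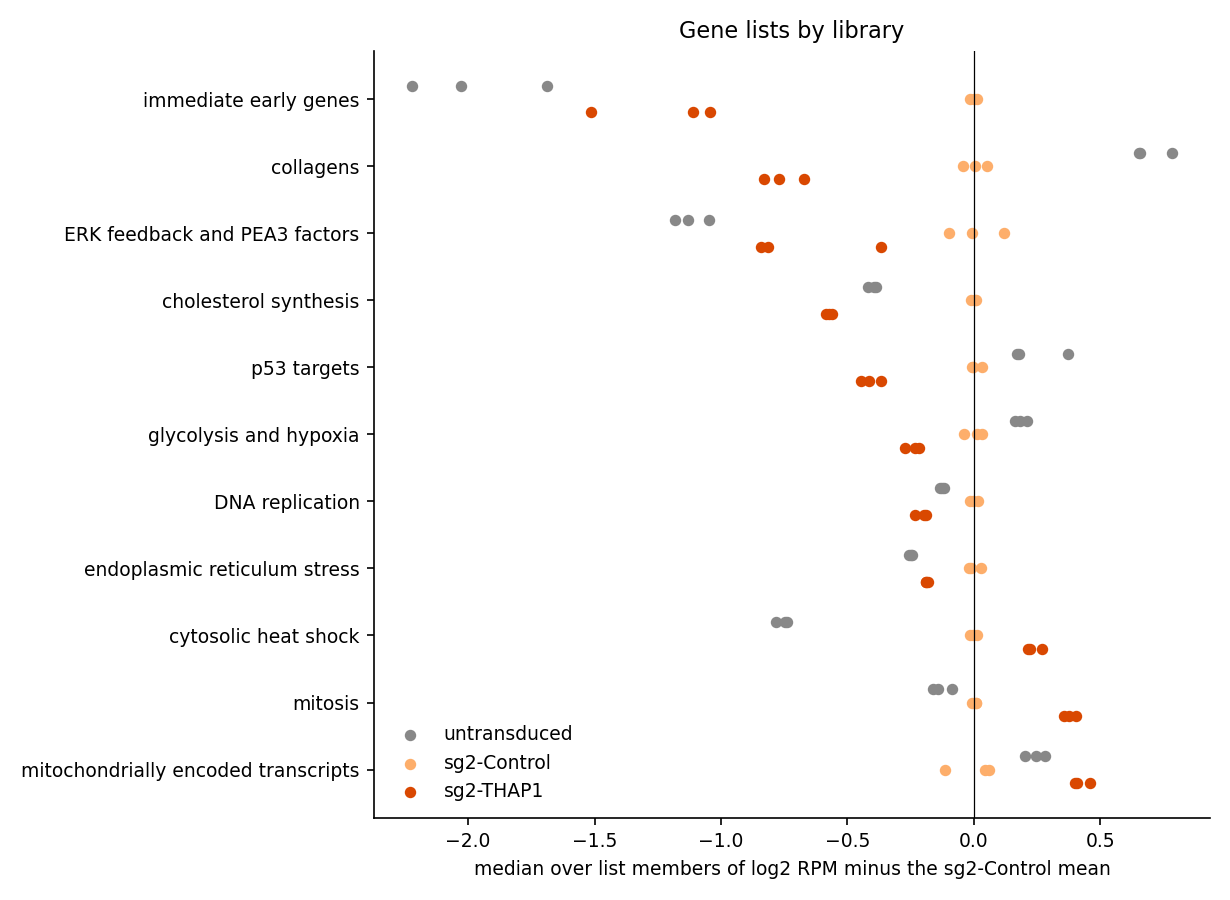
Median over list members of log2 RPM minus the sg2-Control mean (x axis) for 11 gene lists (rows), with 1 point per library of 3 groups. Immediate early genes (-1.52 to -1.04), ERK feedback genes and endoplasmic reticulum stress genes in sg2-THAP1 lie between sg2-Control and untransduced libraries. The remaining lists in sg2-THAP1, among them collagens, p53 targets and mitosis genes, lie outside both.

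Collagens fell without an exception among those that passed. Of 19 tested, 12 were lower in sg2-THAP1 and 0 higher, with a median of -0.72, and all 12 lay below both comparison groups, against 64.9% of all lower genes. COL4A2, a basement membrane chain, was at 5.49, 5.42 and 5.45 against 6.34, 6.26 and 6.2 and fell by 0.81 (SE 0.05, adjusted p = 5.29e-15). COL25A1, a neuronal transmembrane collagen, fell by 1.24 (SE 0.09, adjusted p = 3.79e-12), and COL4A5 and COL18A1 by 0.91 and 0.81. COL27A1 and COL1A1 were called, with falls of 1.31 and 1.2. Untransduced cells stood above sg2-Control for the list, with library medians 0.65 to 0.78 higher. COL6A2 and COL12A1 did not pass, at -0.01 and 0.06. Clustered protocadherins, cell-surface adhesion proteins whose gamma members share exons and so share reads, had 2 of 26 tested lower and 0 higher, with a median of -0.26. PCDHGC4 fell by 0.47 (SE 0.16, adjusted p = 0.0164) and PCDHA10 by 1.14 (SE 0.45, adjusted p = 0.035).

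Cholesterol synthesis genes, which SREBP2 drives, were lower for 19 of 23 tested and higher for 2, with a median of -0.57. STARD4, a sterol transfer protein, was called, with a fall of 1.26 (SE 0.07, adjusted p = 3.05e-15). IDI1 and INSIG1, an isopentenyl isomerase and a sterol-sensing retention protein, fell by 1.21 (SE 0.04, adjusted p = 4.14e-20) and 1.13 (SE 0.03, adjusted p = 2.33e-21). FDFT1, squalene synthase, was at 6.15, 6.07 and 6.08 in sg2-THAP1, 6.95, 6.92 and 6.94 in sg2-Control and 6.52, 6.46 and 6.54 in untransduced cells, and fell by 0.84 (SE 0.04, adjusted p = 3.94e-17). MVD and PMVK rose, by 0.24 and 0.52. Of the 19, 11 lay below both comparison groups, against 64.9% of all lower genes.

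Cell cycle lists moved in different directions. Of 27 mitosis genes tested, 26 were higher in sg2-THAP1 and 0 lower, with a median of 0.37, and all 26 lay above both comparison groups, against 63.0% of all higher genes. TOP2A, DNA topoisomerase II alpha, was at 9.03, 9.09 and 9.05 against 8.43, 8.46 and 8.52 and rose by 0.59 (SE 0.03, adjusted p = 2.90e-16). UBE2C, a ubiquitin-conjugating enzyme of the anaphase-promoting complex, rose by 0.66 (SE 0.03, adjusted p = 1.17e-15). CENPA, the centromeric histone H3 variant, rose by 1.0 (SE 0.06, adjusted p = 1.63e-14), at the edge of a 2-fold change, and missed that threshold without sg2-Control replicate 1 or 3 or sg2-THAP1 replicate 3, at 0.98, 0.99 and 0.96. CCNA2, at 0.07, did not pass. DNA replication genes were lower for 24 of 32 tested and higher for 2, with a median of -0.23. MCM5 and MCM6, subunits of the replicative helicase, fell by 0.64 (SE 0.03, adjusted p = 2.00e-15) and 0.55 (SE 0.03, adjusted p = 2.37e-14), UHRF1 fell by 0.73 (SE 0.03, adjusted p = 5.97e-17), and POLE, the leading-strand polymerase, by 0.49 (SE 0.03, adjusted p = 6.67e-13). TYMS and GINS3 rose, by 0.22 and 0.24.

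Targets of p53 were lower for 17 of 23 tested and higher for 2, with a median of -0.42, in a cell line whose large T antigen binds p53. GADD45A, a stress-response protein, was at 4.68, 4.67 and 4.71 against 5.61, 5.51 and 5.71 and fell by 0.93 (SE 0.05, adjusted p = 1.48e-14). TNFRSF10B, a death receptor, and CCNG1, cyclin G1, fell by 0.58 (SE 0.04, adjusted p = 4.33e-12) and 0.45 (SE 0.04, adjusted p = 1.30e-11). CDKN1A and MDM2 each fell by 0.42. PHLDA3 and TP53I3 rose, by 0.67 and 0.64. Of the 17, 15 lay below both comparison groups, against 64.9% of all lower genes.

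Double-strand break repair genes, the list that holds SHLD1, were lower for 19 of 39 tested and higher for 9, with a median of -0.12. RIF1, which acts upstream of shieldin, was at 6.36, 6.43 and 6.39 against 6.95, 6.92 and 7.03 and fell by 0.57 (SE 0.04, adjusted p = 2.28e-13). PRKDC, the DNA-dependent protein kinase, fell by 0.39 (SE 0.03, adjusted p = 1.67e-12). The remaining shieldin subunits SHLD2 and SHLD3 differed in direction, at 0.15 and -0.31, and MAD2L2, their partner, rose by 0.20. TP53BP1, which recruits the complex, fell by 0.12. BARD1 and BRCA2 fell by 0.62 and 0.54, and BRCA1 rose by 0.18.

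The m6A list, which holds METTL3, was lower for 9 of 16 tested and higher for 1, with a median of -0.13. RBM15, an adaptor of the writer complex, was at 4.6, 4.54 and 4.59 against 5.64, 5.63 and 5.66 and was called, with a fall of 1.07 (SE 0.05, adjusted p = 1.14e-16). METTL14, the partner of METTL3, and WTAP did not pass, at -0.01 and 0.05. ALKBH5, an m6A eraser, rose by 0.27. With libraries centred on their medians, the list had 6 lower and 4 higher.

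Complex I subunits were lower for 3 of 37 tested and higher for 17, with a median of 0.08. NDUFA10, an accessory subunit, fell by 0.26 (SE 0.04, adjusted p = 9.14e-07). NDUFB5 rose the most, by 0.64 (SE 0.05, adjusted p = 5.72e-12). All 13 mitochondrially encoded transcripts were higher, with a median of 0.41. MT-ND4, which encodes a complex I subunit, was at 12.45, 12.44 and 12.47 against 11.98, 12 and 11.82, under the untransduced level of 12.77, 12.75 and 12.72, and rose by 0.52 (SE 0.03, adjusted p = 1.35e-14). MT-ATP6 rose by 0.41 (SE 0.02, adjusted p = 7.64e-15), but its difference was -0.03 (adjusted p = 0.218) after quantile normalization, and 11 of the 13 then passed. In mitochondrial import, 9 of 19 tested were higher and 2 lower, with a median of 0.05. TOMM7 and TOMM22 rose by 0.35 and 0.23, and TOMM40, the paralogue of TOMM40L, was at 0.01.

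Fatty acid oxidation genes, among them ECH1, were lower for 10 of 22 tested and higher for 1, with a median of -0.09. ECI2 fell by 0.39 (SE 0.05, adjusted p = 1.62e-07), HSD17B4 by 0.26 (SE 0.04, adjusted p = 3.53e-06), and the carnitine carrier SLC25A20 rose by 0.59 (SE 0.09, adjusted p = 2.72e-06). Median centring left 6 lower and 2 higher. Lysosomal hydrolases, among them GALC, were lower for 12 of 28 tested and higher for 8, with a median of -0.06. GUSB, beta-glucuronidase, was at 5.05, 5.04 and 5.02 against 6.21, 6.23 and 6.22 and fell by 1.18 (SE 0.04, adjusted p = 4.15e-19), which made it the second called member. SMPD1 and IDS rose by 0.62 and 0.42. Glycolysis and hypoxia genes were lower for 20 of 30 tested and higher for 1, with a median of -0.24, and BNIP3L, a mitophagy receptor, fell the most, by 1.15 (SE 0.07, adjusted p = 1.93e-14).

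Proteasome subunits were split, with 11 of 33 tested lower and 9 higher and a median of 0.02. PSMB5 had the largest fall, and it was the 1 gene of the 11 that lay below both comparison groups. Its locus held the reporter used for the dim GFP sort, so its place in the list is a description only. PSMD2 and PSMD1, base subunits of the regulatory particle, fell by 0.29 (SE 0.03, adjusted p = 9.28e-09) and 0.26 (SE 0.03, adjusted p = 3.92e-08), and PSMB3 rose by 0.34 (SE 0.03, adjusted p = 1.59e-09). The catalytic subunits PSMB6 and PSMB7 were at 0.14 and 0.07, of which the first passed. Median centring gave 9 lower and 17 higher. Among assembly factors and activators, 7 of 16 tested were higher and 2 lower, with a median of 0.11. PSMB10, an immunoproteasome subunit, and PAAF1 rose by 0.60 (SE 0.07, adjusted p = 7.27e-08) and 0.59 (SE 0.07, adjusted p = 2.72e-08), while PSMB8 and PSMB9 were too low to be tested.

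Cytosolic heat shock genes were higher for 16 of 20 tested and lower for 1, with a median of 0.23, and 15 of the 16 lay above both comparison groups, against 63.0% of all higher genes. Untransduced cells stood below sg2-Control for this list, with library medians of -0.78 to -0.74. HSPA8, the constitutive HSC70, was at 11.13, 11.14 and 11.15 in sg2-THAP1, 10.33, 10.33 and 10.23 in sg2-Control and 9.1, 9.11 and 9.06 in untransduced cells, and rose by 0.84 (SE 0.03, adjusted p = 3.05e-21). DNAJB1, its HSP40 partner, rose by 0.65 (SE 0.04, adjusted p = 3.46e-15). HSPA1A and HSPA1B, whose near-identical sequences make the split of their reads uncertain, rose by 1.43 and 1.05. Endoplasmic reticulum stress genes went the other way, with 16 of 21 tested lower, 1 higher and a median of -0.18. Untransduced cells also stood below sg2-Control for this list, with library medians of -0.26 to -0.24. Of the 16, 8 lay below both comparison groups, against 64.9% of all lower genes. HSPA5, the chaperone BiP, was at 8.96, 8.99 and 9.0 against 9.46, 9.46 and 9.42 and fell by 0.46 (SE 0.03, adjusted p = 7.27e-15), and HERPUD1 fell by 0.63 (SE 0.05, adjusted p = 5.35e-12).

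The remaining lists were divided. ATF4 targets had 5 of 21 tested lower and 9 higher, with a median of 0.06. NUPR1, a stress-induced nuclear protein, was called at 1.84 (SE 0.43, adjusted p = 6.08e-04). ASNS, asparagine synthetase, rose by 0.48 (SE 0.03, adjusted p = 7.26e-13) and SLC7A11, the cystine transporter, fell by 0.62 (SE 0.07, adjusted p = 1.49e-08). NRF2 targets had 6 of 16 lower and 7 higher, with a median of 0.03, where NQO1, a quinone reductase, was called at 1.12 (SE 0.20, adjusted p = 3.62e-05) and HMOX1, haem oxygenase, rose by 0.78 (SE 0.06, adjusted p = 5.44e-12). mTOR genes had 3 of 24 lower and 11 higher, with a median of 0.12, and RICTOR, the scaffold of mTOR complex 2, fell by 0.78 (SE 0.06, adjusted p = 3.94e-12). Interferon-stimulated genes had 2 of 15 tested lower and 4 higher, with a median of -0.04. Monogenic dystonia genes had 8 of 20 lower and 5 higher, with a median of -0.12, with CIZ1 and KCTD17 up by 0.57 and 0.54. THAP family genes and cofactors had 3 of 15 lower and 7 higher, with a median of 0.26, and the targeted gene THAP1 is itself counted among those higher. OGT fell by 0.54 (SE 0.03, adjusted p = 2.24e-14), while HCFC1 did not pass at -0.05 and YY1 fell by 0.09.

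Next, the effect of the last exon guide was compared with that of the exon 1 guide, each against its own control guide, so that no library was shared. The exon 1 guide gave 426 lower calls, or 2.54% of genes, and 64 higher calls, or 0.381%. Both guides called 184 genes in the same direction, 153 lower and 31 higher, and 0 in opposite directions. These were 49.2% of the calls with the last exon guide and 37.55% of those with the exon 1 guide. Of the 374 calls with the last exon guide, 358 had the same sign with the exon 1 guide. The share of same-sign genes over all tested genes was not counted, so this number is a description. Across the tested genes, which are not independent replicates, the log2 differences had a Pearson r of 0.541.

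Tested directly, 74 genes differed between the guides. The last exon guide had the more negative effect in 9, or 0.0536%, and the more positive in 65, or 0.387%. At adjusted p under 0.05 these shares were 8.2% and 20.5%, around a median of 0.08, and quantile normalization moved the calls to 10 and 33. SLX4IP, which was at -1.35, -2.17 and -2.36 log2 RPM in sg1-THAP1 and 0.21, -0.94 and -0.19 in sg2-THAP1, fell less with the last exon guide, by a difference of 1.68 (SE 0.34, adjusted p = 2.15e-04). SHLD1 had 0, 3 and 1 reads in sg1-THAP1 against 4, 5 and 9 in sg2-THAP1, and a difference of 1.76 (SE 0.57, adjusted p = 0.0175). METTL3 and CDIN1 also fell less, by 0.88 (SE 0.09, adjusted p = 2.01e-09) and 1.27 (SE 0.19, adjusted p = 2.49e-06). In all, 9 of the 10 labelled targets that fell were weaker with the last exon guide, 7 of them at adjusted p under 0.05. Over all 262 genes called lower with the last exon guide, 35 were weaker and 40 stronger with it at that threshold. Of the 112 called higher, 48 were stronger and 4 weaker. These calls were selected on the last exon guide's own values, which favours a stronger effect with it. MTMR8 and GALC were close, at 0.02 (SE 0.49, adjusted p = 0.979) with a 95% interval of -0.97 to 1.02, and -0.06 (SE 0.45, adjusted p = 0.938) with an interval of -0.98 to 0.85.

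THAP1 rose more with the last exon guide, by 0.70 (SE 0.09, adjusted p = 6.64e-08), as did TOMM40L, by 0.63 (SE 0.06, adjusted p = 6.53e-10), and ANXA1, by 1.46 (SE 0.08, adjusted p = 1.96e-17). ANXA1 was at 5.21, 5.26 and 5.2 in sg1-THAP1 against 6.42, 6.42 and 6.37 in sg2-THAP1. HSPA8, which rose with the last exon guide, was at 10.29, 10.27 and 10.27 in sg1-THAP1 and 10.32, 10.39 and 10.38 in sg1-Control, and the guides differed by 0.93 (SE 0.03, adjusted p = 9.30e-23). The cytosolic heat shock list as a whole was higher for 16 of 20 tested with the exon 1 guide too, with a median of 0.23 for each guide. Between the guides, 2 of its members were more positive and 4 more negative. HSPA6 had 5, 5 and 1 reads in sg1-THAP1 and 10, 3 and 6 in sg1-Control, a difference between guides of 3.97 (SE 0.94, adjusted p = 0.00123). It was not called, and since HSPA6 entered the test through its high sg2-THAP1 values, this difference is a description only. AKT1S1 rose less with the last exon guide, with a difference of -0.12 (SE 0.05, adjusted p = 0.0433).

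**Figure D5:**
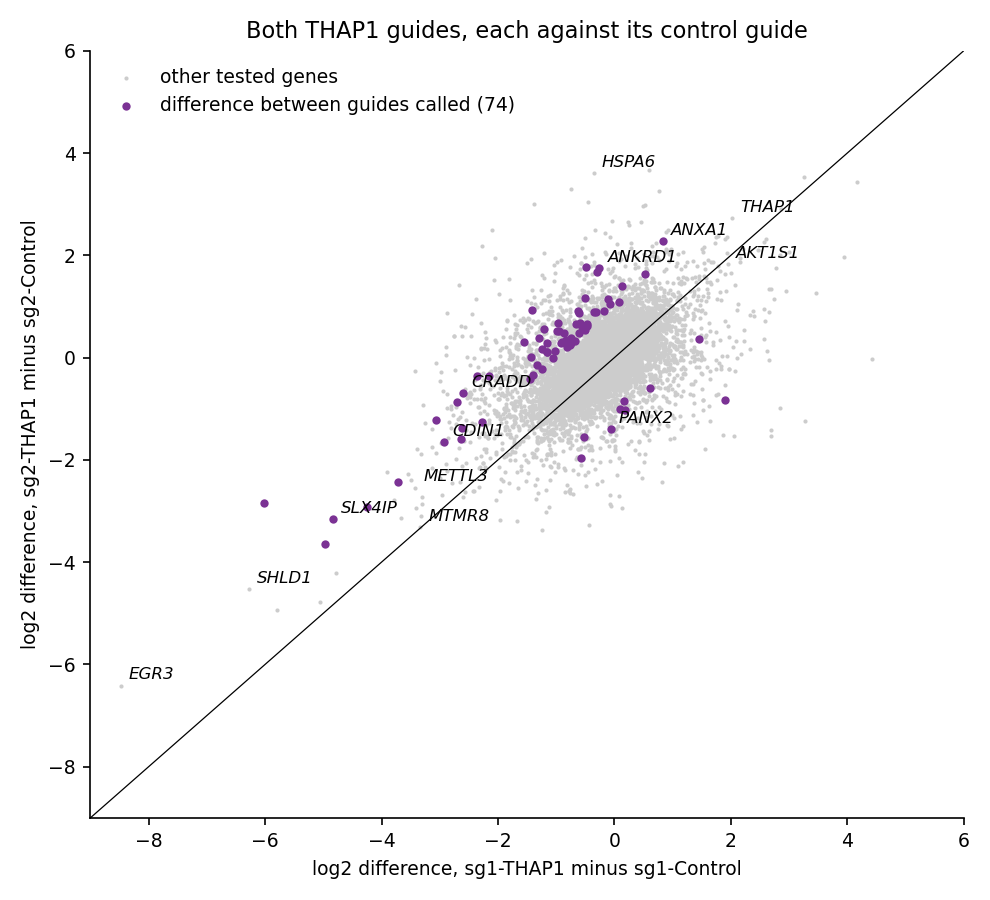
Log2 difference of sg2-THAP1 from sg2-Control (y axis) against that of sg1-THAP1 from sg1-Control (x axis), with 1 point per tested gene and a line where both are equal. Purple points are the 74 genes called between the guides, of which 65 lie above the line, among them SLX4IP and ANXA1, and PANX2 is among the 9 below it.

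Some lists differed between the guides as well. Collagens, DNA replication and cytosolic heat shock genes had median differences of -0.01, 0.02 and -0.01, against 0.08 over all tested genes. Immediate early genes fell less with the last exon guide for 19 of 23 tested and more for 0, with a median difference of 0.57, and EGR1 differed by 1.3 (SE 0.06, adjusted p = 7.01e-20). Relative to the sg2-Control mean, list medians were 0.30 to 0.37 in sg1-Control, -1.70 to -1.58 in sg1-THAP1 and -1.52 to -1.04 in sg2-THAP1. EGR1 averaged 8.03 in sg1-Control, 7.21 in sg2-Control, 4.31 in sg1-THAP1 and 4.78 in sg2-THAP1. Part of the difference thus lies between the control guides. ERK feedback genes fell less for 9 of 15 and more for 0, with sg1-Control medians 0.145 to 0.204 above the sg2-Control mean. Mitosis genes rose more for 24 of 27, with a median of 0.21. Cholesterol synthesis genes were more negative for 17 of 23 and more positive for 2, with FDFT1 at -0.61 (SE 0.05, adjusted p = 2.02e-12). Proteasome subunits were more negative for 23 of 33, complex I subunits for 21 of 37 and mitochondrially encoded transcripts for 11 of 13, with medians of -0.15, -0.16 and -0.25. Their medians were above 0 with both guides, at 0.17, 0.28 and 0.66 with the exon 1 guide and 0.02, 0.08 and 0.41 with the last exon guide. Against the counts of these lists, 8.2% of all genes were more negative and 20.5% more positive.

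The control guide was last compared with untransduced cells, because the study discounts genes that differ between them. Here 1718 genes were lower in sg2-Control, or 10.2%, and 320 higher, or 1.91%, around a median of -0.12, and quantile normalization gave 732 lower and 660 higher. This comparison shares the sg2-Control libraries with the comparison above, so values are set side by side only. FUT1, a fucosyltransferase, was at 2.77, 3.04 and 2.92 log2 RPM in untransduced cells, -1.69, -2.41 and -1.82 in sg2-Control and -0.35, -1.01 and 0.01 in sg2-THAP1. IFI44L, an interferon-induced gene, fell from 0.88, 0.64 and 1.53 in untransduced cells to -5.15, -2.19 and -3.55 in sg2-Control. INHBE, an inhibin chain, fell from 1.07, 1.11 and 1.37 to -2.83, -5.15 and -2.33. The -5.15 of IFI44L stands for 1 read and that of INHBE for 0 reads. Without trended moderation neither IFI44L nor INHBE was called (adjusted p = 0.00457 and 0.00425). EGR3, SPRY4, FOSB and ETV5 were the largest called rises with EGR4, and ETV5 went from -1.76, -2.02 and -2.61 to 2.86, 2.84 and 2.87 and stood at 1.76, 2.04 and 2.14 in sg2-THAP1. Removing all genes called between sg2-Control and untransduced cells left 249 of the 374 calls, 167 lower and 82 higher. SLX4IP, at -0.88 between sg2-Control and untransduced cells, stayed under the 2-fold threshold there, and TMEM101, at -1.58, did not.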

How the data were processed

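RNA-seq was made from biological triplicates of HEK-293T reporter cells. The authors trimmed reads with Cutadapt, aligned them with HISAT2 to GRCh38 and counted them per gene in SeqMonk, and the deposited values are log2 RPM, read numbers scaled by library size, for 35805 lines. Genes with 0 reads are listed as if they had 0.9 read, and read numbers recovered from the log2 values were whole, within 0.01 read, for at least 99.6% of values. The annotation release is not given in the sources used here. Depth was 30400149 to 56638461 reads per library.

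Samples were grouped by the labels, and 16787 genes that reached log2 RPM of -2 in 3 or more of the 15 libraries were tested with limma 3.58.1 (R 4.3.3, trended moderation, no covariate, Benjamini-Hochberg), using the 6 libraries of the comparison. The difference between guides was tested in a fit of 12 libraries. The fit of sg2-THAP1 against sg2-Control was tested on simulated data, and the other fits were not. Replicate numbers did not pair the samples, with correlations of deviations between sg2-THAP1 and sg2-Control of 0.0425, -0.131 and -0.126.

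Genes named were THAP1 and PSMB5, the 12 largest called changes in each direction outside sg2-Control and untransduced cells, the study's labelled targets, in each list the 4 or fewer members of lowest adjusted p, and the largest changes of the other comparisons (8 between guides and 5 against untransduced cells, in each direction). Some genes that these rules name are not reported here, and positions on chromosome 8 were not used. Further list members were named after their values were seen. Members and lists were chosen with earlier results of these data known. Alternatives covered filters, a pseudocount of 0.5 RPM, scaling, thresholds, left-out libraries, a replicate block and voom on recovered reads.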

Additional observations from a re-analysis of the deposited data

Results flagged for a closer look

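The effect of the last exon guide differed from that of the exon 1 guide in a direct test of the difference (limma, adjusted p under 0.001 and more than 2-fold), and the 8 largest differences in each direction are given here. More positive with the last exon guide were the non-coding LINC00473, at 3.17 (SE 0.65, adjusted p = 2.20e-04), the ETS factor ETV4, at 2.35 (SE 0.46, adjusted p = 1.11e-04), RP11-442N24__B.1, at 2.26 (SE 0.51, adjusted p = 7.42e-04), and the muscle ankyrin repeat protein ANKRD1, at 2.01 (SE 0.14, adjusted p = 7.10e-14). The heparan sulfatase SULF1 differed by 2.0 (SE 0.45, adjusted p = 7.04e-04), RP4-751H13.7 by 1.98 (SE 0.44, adjusted p = 6.49e-04), the death domain adaptor CRADD by 1.92 (SE 0.22, adjusted p = 1.32e-08) and the synaptic adaptor APBA1 by 1.87 (SE 0.37, adjusted p = 1.53e-04).

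LINC00473 had 7, 6 and 7 reads in sg2-THAP1, 41, 42 and 43 in sg2-Control, 0, 0 and 0 in sg1-THAP1 and 116, 102 and 57 in sg1-Control, and was called lower with both guides. With every sg1-THAP1 library at 0 reads, its fitted difference depends on the value listed for 0 reads. ANKRD1 stood at 4.4, 4.47 and 4.37 log2 RPM in sg2-THAP1 against 2.48, 2.73 and 2.78 in sg2-Control, and at 2.36, 2.25 and 2.43 in sg1-THAP1 against 2.69, 2.5 and 2.63 in sg1-Control. CRADD was at 1.7, 1.71 and 1.81 in sg2-THAP1 and 0.06, -0.45 and -0.04 in sg1-THAP1, with 2.49, 2.3 and 2.51 and 2.4, 2.55 and 2.44 in the matching control guides.

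More negative with the last exon guide were RP11-70L8.5, at -2.72 (SE 0.57, adjusted p = 3.05e-04), the glycoprotein hormone alpha subunit CGA, at -1.38 (SE 0.30, adjusted p = 5.18e-04), the channel protein PANX2, at -1.33 (SE 0.17, adjusted p = 8.04e-08), and the antisense transcript KCNQ1OT1, at -1.22 (SE 0.12, adjusted p = 7.89e-10). The iron-binding protein PIR differed by -1.19 (SE 0.15, adjusted p = 4.73e-08), the nucleosome assembly protein NAP1L2 by -1.09 (SE 0.19, adjusted p = 1.55e-05), LL22NC03-2H8.5 by -1.08 (SE 0.20, adjusted p = 5.08e-05) and the coronin CORO6 by -1.03 (SE 0.18, adjusted p = 2.19e-05). PANX2 was at 1.63, 1.75 and 1.89 in sg2-THAP1 against 3.12, 3.43 and 2.9 in sg2-Control, and at 2.97, 2.72 and 2.88 in sg1-THAP1 against 2.9, 3.0 and 2.86 in sg1-Control.

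Calls on LINC00473, RP11-442N24__B.1, SULF1, RP4-751H13.7, RP11-70L8.5 and CGA were each lost without several single libraries of the 12, at adjusted p of 0.00104 to 0.00467. The call on APBA1 was lost without sg1-Control replicate 1 (adjusted p = 0.00119) or sg2-THAP1 replicate 2 (0.00139). NAP1L2 stayed short of 2-fold without sg2-Control replicate 3 or sg2-THAP1 replicate 1 (-0.97 and -0.93), LL22NC03-2H8.5 without sg1-Control replicate 3 or sg2-THAP1 replicate 1 (-0.98 and -0.99), and CORO6 without sg2-Control replicate 1 or sg2-THAP1 replicate 2 (-0.98 and -0.90). ETV4, ANKRD1, CRADD, PANX2, KCNQ1OT1 and PIR kept the call without any 1 library. Without trended moderation, however, ETV4, PANX2 and PIR were not called (adjusted p = 0.0324, 0.00169 and 0.00121). The same held for RP11-442N24__B.1, SULF1, RP4-751H13.7, APBA1, RP11-70L8.5, CGA, NAP1L2, LL22NC03-2H8.5 and CORO6 (0.00356 to 0.0127). ETV4 also missed the call without the filter on low values (0.00192).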

How the results depend on the processing

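The 374 calls between sg2-THAP1 and sg2-Control became 213 with a pseudocount of 0.5 RPM, 110 without trended moderation, 763 at adjusted p under 0.05 and 4994 without a fold threshold. Removing genes that also differed between sg2-Control and untransduced cells left 249 at the same thresholds and 86 at adjusted p under 0.05. Other scalings, filters, voom and array weights gave 340 to 394 calls and a fit over all 15 libraries 412, and quantile normalization put 60.29% of calls lower in place of 70.05%. Leaving out 1 library gave 319 to 344. The 74 differences between guides became 47 with the pseudocount, 43 after quantile normalization, 44 after median centring, 16 without trend, 295 at adjusted p under 0.05, 1959 without a fold threshold, and 52 to 79 without 1 library. The share of these that was negative moved from 12.16% to 23.26% after quantile normalization, 22.73% after centring and 23.08% without the filter on low values. The 2038 calls between sg2-Control and untransduced cells became 1163 without trend and 8804 without a fold threshold, and 1655 to 2016 without 1 library. Of these calls, 84.3% were lower, against 52.59% after quantile normalization and 70.21% after centring. Differences reversed for MT-ATP6 after quantile normalization (-0.0289) and for MUC1, which was not called, without sg2-THAP1 replicate 3 (values without 1 library from -0.2612 to 0.0575). With a replicate block, calls numbered 345, 66 and 2155, and RP11-649A18.4 and RIMBP3B were no longer called (adjusted p = 0.00136 and 0.00199). The replicate numbers are only numbers, and the cause of the other shifts was not tested. Between sg2-THAP1 and sg2-Control, 22 named genes lost their call without trend and 9 without 1 library. Depth limits the calls on genes with few reads, since 11 called genes had fewer than 10 reads in every library of the lower group.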
